A study of Mus musculus with 9 samples.

Results

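Kidney lineage transcription factors were followed here through 8 genes, Pax2, Pax8, Lhx1, Hnf4a, Emx2, Sall1, Pou3f3 and Tfcp2l1, taken by symbol from a table of 22161 gene rows. All 8 were found, and each passed the filter on low values (a mean of at least 10 normalized counts over the 9 libraries). The table holds kidney poly(A) RNA from C57BL/6 mice in 3 groups of 3, and WT, KO and DKO with a number denote single mice. WT mice were labelled only as wild type, KO mice carried Pkd2fl/fl with Pax8rtTA and TetO-cre, and DKO mice carried Ift88fl/fl in addition to those alleles. The labels do not say whether wild type mice carried a driver or a floxed allele. All 9 mice received oral doxycycline (2 mg/ml) for 2 weeks, beginning at postnatal day 28, and were 10 weeks old (postnatal day 70) at collection. Doxycycline activates rtTA, which then turns on cre, so that deletion is limited to cells in which Pax8-rtTA is active. Pkd2 encodes polycystin-2, mutated in polycystic kidney disease, and Ift88 encodes a protein needed to build cilia.

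These transcription factors lay out the nephron and its duct. Pax2, Pax8 and Lhx1 specify the nephric lineage, Emx2 and Sall1 are needed for the outgrowth of the ureteric bud and the response of the metanephric mesenchyme, and Hnf4a, Pou3f3 and Tfcp2l1 direct the maturation of the proximal tubule, the loop of Henle and the collecting duct. In the adult kidney most of them stay on in tubule cells, and Pax2 and Pax8 serve pathologists as markers of renal epithelium. Pax8 also has a technical role here, because its regulatory sequence drives the rtTA used for deletion. The files do not show whether the transgene contains transcribed Pax8 sequence.

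Sequence upstream of the start sites is shown for 3 genes that the results below turn on. Hnf4a has a pair of start sites whose reads share 1 row of the table, Pou3f3 had the lowest unadjusted p of the 8 factors in Pkd2 knockout kidneys, and Umod is the most abundant loop of Henle gene tied to Pou3f3. Each line gives the 250 bases before a start site, 5′ to 3′ on the gene's strand, from RefSeq on GRCm38.p6. The build used by the authors is not given in the sources used here. Capitals mark CCAAT on either strand (ATTGG where it lies on the opposite strand), the core of the CCAAT box, a common promoter element. This element was chosen after the sequences were seen.
Hnf4a upstream start, chr2:163506607-163506856, plus strand: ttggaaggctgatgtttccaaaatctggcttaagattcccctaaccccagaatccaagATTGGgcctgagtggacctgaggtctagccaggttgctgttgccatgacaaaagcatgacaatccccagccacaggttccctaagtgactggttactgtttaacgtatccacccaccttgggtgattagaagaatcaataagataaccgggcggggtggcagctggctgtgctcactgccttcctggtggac
Hnf4a downstream start, chr2:163546905-163547154, plus strand: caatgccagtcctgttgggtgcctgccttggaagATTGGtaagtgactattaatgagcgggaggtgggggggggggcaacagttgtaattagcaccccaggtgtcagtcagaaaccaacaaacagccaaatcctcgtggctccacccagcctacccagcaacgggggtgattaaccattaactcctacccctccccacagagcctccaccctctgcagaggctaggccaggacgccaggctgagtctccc
Pou3f3, chr1:42695518-42695767, plus strand: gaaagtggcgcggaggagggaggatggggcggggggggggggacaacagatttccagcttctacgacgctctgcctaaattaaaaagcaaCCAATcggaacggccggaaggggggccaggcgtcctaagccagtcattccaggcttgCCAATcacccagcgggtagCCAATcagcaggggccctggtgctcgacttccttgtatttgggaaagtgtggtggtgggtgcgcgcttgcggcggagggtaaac
Umod, chr7:119479263-119479512, minus strand: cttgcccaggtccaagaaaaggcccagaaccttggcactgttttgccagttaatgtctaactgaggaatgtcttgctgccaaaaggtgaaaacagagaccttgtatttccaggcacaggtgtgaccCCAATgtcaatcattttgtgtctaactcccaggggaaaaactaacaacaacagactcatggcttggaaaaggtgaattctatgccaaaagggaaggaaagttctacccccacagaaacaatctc

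The Pou3f3 window held 3 matches, 160, 103 and 84 bases before the start, all on the strand of the gene. Each Hnf4a window held 1 on the opposite strand, 192 and 216 bases before its start, and the Umod window held 1, 124 bases before the start. Of 32851 windows of the same length in the RefSeq table, 33.8% held at least 1 match and 2.79% held 3 or more. Among the 8 factors, 6 had a match in a window, and Pax2 and Tfcp2l1 had none. A factor has up to 3 windows, so this count of factors cannot be set against the share of single windows. These matches describe the letters in the windows and were not tested for binding.

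In the libraries as a whole, normalized totals lay between 40454151 and 42874467, with a mitochondrial share of 9.21 to 10.8%. Relative to the wild type mean, Pkd2 was 36.3% in the Pkd2 knockout mice and 33.3% in the double knockout mice, and Ift88 was 66.0% of its Pkd2 knockout mean in double knockout kidneys. That Ift88 difference passed the test described below (limma adjusted p = 0.0358) but missed it in 10 of 24 alternative settings. Against wild type the log2 fold change of Ift88 in double knockout was -0.53 and did not pass (limma adjusted p = 0.0617). Defining markers of the labelled tissue were present in all mice, with the 10 proximal tubule markers summing to between 618189 and 714917 normalized counts. Summed markers of cells in mitosis lay between 371 and 470.0 normalized counts in wild type, between 2211 and 2661 in Pkd2 knockout and between 458 and 966 in double knockout kidneys, and all 6 rose in Pkd2 knockout. Their part in the results below was not tested. Summed red blood cell markers were 6174 normalized counts in KO 3 and at most 1012 in the other mice, and summed adipose markers were highest in KO 3 at 5059. The mouse names of WT 3 and KO 3 have another prefix than those of the other mice in their group, and since each prefix is found within a single group, prefix and genotype cannot be told apart.

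None of the 8 factors passed limma's test in any of the 3 comparisons, with an adjusted p below 0.05 over 15740 genes as the threshold. Called genes were 2.4% of all tested between Pkd2 knockout and wild type kidneys, 0.394% between double knockout and Pkd2 knockout, and 0.229% between double knockout and wild type. By direction these shares were 1.14% higher and 1.25% lower, then 0.127% and 0.267%, then 0.0762% and 0.152%. At an unadjusted p under 0.05, 1 factor differed in each comparison: Pou3f3 in the first and second and Hnf4a in the third, where 18, 10.7 and 11.7% of tested genes did so. edgeR and DESeq2 on 7 libraries also called 0 of the 8 in each. There edgeR also missed the deleted Pkd2 between Pkd2 knockout and wild type (log2 fold change of -1.42, edgeR adjusted p = 0.0581). It missed Ift88 between double knockout and Pkd2 knockout too (edgeR adjusted p = 0.189), while Pkd2 passed between double knockout and wild type. A count of 0 calls by edgeR therefore does not show that genes were unchanged. The groups of 2 factors did not overlap between Pkd2 knockout and wild type, Hnf4a higher and Pou3f3 lower, as for 25.2% of tested genes (12.4% higher and 12.8% lower). Between double knockout and Pkd2 knockout 0 factors were so separated, against 15.2% of tested genes (7.4% higher and 7.78% lower), and between double knockout and wild type 1 was, Hnf4a, against 18.3% (9.1% higher and 9.24% lower). The 3 comparisons share libraries with each other, so their values for a factor are not independent.

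**Figure D1:**
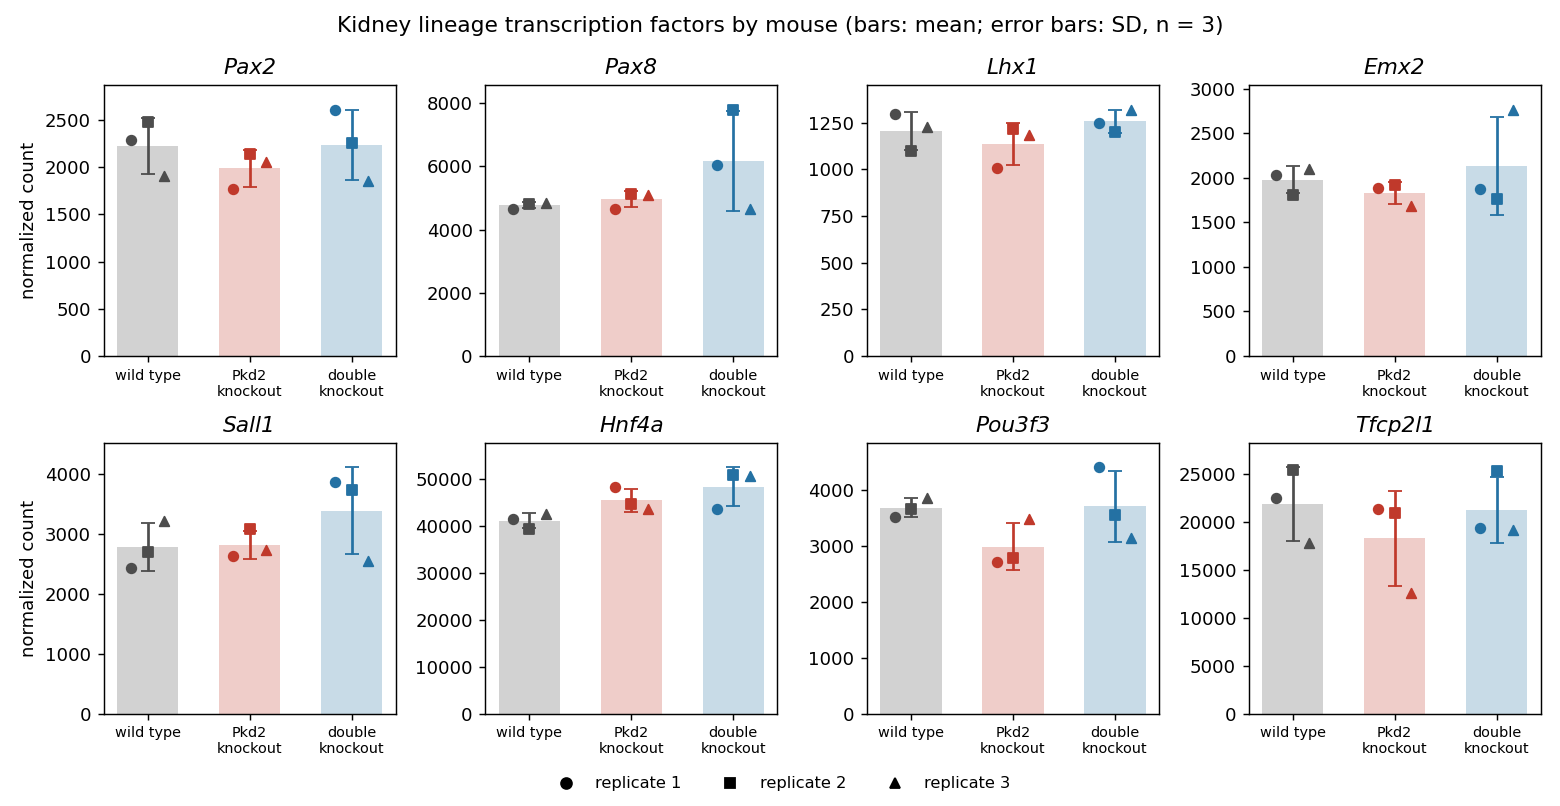
Normalized counts of the 8 factors, 1 symbol per mouse, with bars for the mean and error bars for the SD (n = 3) in wild type, Pkd2 knockout and double knockout kidneys. The groups overlap in most panels, the wild type mice lie below both mutant groups for Hnf4a, and the Pkd2 knockout mice lie below the wild type mice for Pou3f3.

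Pax2, a paired-box factor of the nephric duct and the condensing mesenchyme, was measured at 2291, 2479 and 1904 normalized counts in WT 1 to 3. In KO 1 to 3 it was 1765, 2136 and 2058, and in DKO 1 to 3 it was 2602, 2253 and 1854. WT 3 and DKO 3 were the lowest of their groups, and all 3 groups overlapped. The log2 fold change of Pkd2 knockout against wild type was -0.16 ± 0.14 (SE, n = 3; limma adjusted p = 0.593), on the log2(normalized count + 1) scale used for all fold changes here. Its 95% confidence interval ran from -0.48 to 0.16.

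Pax8, the paired-box paralog of Pax2, had tight wild type values of 4656, 4808 and 4841 normalized counts. Pkd2 knockout mice had 4665, 5127 and 5090, and double knockout mice had 6028, 7798 and 4644. DKO 2 had the highest value of the 9 mice, DKO 3 the lowest, and the coefficient of variation was 25.7% in double knockout kidneys against 2.07% in wild type. The log2 fold changes were 0.06 ± 0.15 for Pkd2 knockout against wild type (limma adjusted p = 0.885) and 0.34 ± 0.15 for double knockout against wild type (adjusted p = 0.438). Without DKO 2 the latter was 0.15, and without DKO 3 it was 0.52 (adjusted p = 0.141). The mean level of the gene whose regulatory sequence drives rtTA was 104% of wild type in the Pkd2 knockout mice and 129% in the double knockout mice, and neither difference passed.

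Lhx1, a LIM homeobox factor of the early duct and the renal vesicle, was the least abundant of the 8 per length. It was 1297, 1099 and 1228 normalized counts in WT 1 to 3, 1009, 1217 and 1187 in KO 1 to 3, and 1252, 1200 and 1321 in DKO 1 to 3. KO 1 had the lowest value and the groups overlapped. The interval of the log2 fold change between Pkd2 knockout and wild type ran from -0.31 to 0.13 around -0.09, which moved to -0.00 (-0.00358) without KO 1.

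Emx2, a homeobox factor needed in the ureteric bud, was 2028, 1805 and 2095 normalized counts in WT 1 to 3 and 1891, 1918 and 1683 in KO 1 to 3. Double knockout mice had 1869, 1765 and 2767, so that DKO 3 stood above the other 8 mice. The log2 fold change of double knockout against Pkd2 knockout was 0.19 ± 0.16 (limma adjusted p = 0.766) with all mice and -0.01 without DKO 3. Against wild type it was 0.08, and -0.12 without DKO 3.

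Sall1, a zinc finger factor of nephron progenitors, was 2427.5, 2691 and 3220 normalized counts in WT 1 to 3 and 2638, 3083 and 2730.4 in KO 1 to 3. In DKO 1 to 3 it was 3873, 3740 and 2556. DKO 1 and DKO 2 were the highest of the 9 mice, whereas DKO 3 lay within the wild type range. The double knockout mean was 122% of the wild type mean (log2 fold change of 0.27 ± 0.16, limma adjusted p = 0.565), and 0.46 on the log2 scale without DKO 3 (adjusted p = 0.220).

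Hnf4a, the nuclear receptor of the proximal tubule program, was the most abundant factor. Wild type mice had 41482, 39381 and 42416 normalized counts, Pkd2 knockout mice 48185, 44607 and 43547, and double knockout mice 43582, 50884 and 50594. Each of the 6 mutant mice lay above all 3 wild type mice. The log2 fold change was 0.14 ± 0.09 in Pkd2 knockout (95% interval of -0.05 to 0.34, limma adjusted p = 0.404). In double knockout kidneys it was 0.23 ± 0.09 (0.04 to 0.42, unadjusted p = 0.0234, adjusted p = 0.336, limma). Hnf4a also had the smallest residual spread of the 8 factors, 0.09 on the log2 scale against a median of 0.18 over all tested genes.

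Pou3f3, also called Brn1, is a POU domain factor required to form the loop of Henle. It was 3523, 3662 and 3854.5 normalized counts in WT 1 to 3 and 2704, 2780.0 and 3476 in KO 1 to 3. KO 3 was just below the lowest wild type mouse, and the other 2 Pkd2 knockout mice were further below. DKO 1 to 3 had 4406, 3558 and 3148, which spanned the wild type range. Against wild type the log2 fold change was -0.31 ± 0.13 in Pkd2 knockout (interval of -0.61 to -0.01, unadjusted p = 0.0439, adjusted p = 0.263, limma). Between double knockout and Pkd2 knockout it was 0.31 ± 0.13 (0.01 to 0.60, unadjusted p = 0.0460, adjusted p = 0.453, limma), and between double knockout and wild type it was -0.00 (-0.00379). Array quality weights, which give less weight to the libraries that deviate most, were the 1 setting under which a factor was called: Pou3f3 had a log2 fold change of -0.36 between Pkd2 knockout and wild type (adjusted p = 0.0215, limma), while 3222 genes in all were called.

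Tfcp2l1, a grainyhead-like factor of the collecting duct and distal tubule, had the largest residual spread of the 8 when the groups were pooled, 0.32 on the log2 scale, although Emx2, Pax8, Sall1, Pou3f3 and Pax2 had larger coefficients of variation among the double knockout mice. It was 22452, 25363 and 17741 normalized counts in WT 1 to 3, 21365, 20933 and 12593 in KO 1 to 3, and 19390.1, 25253 and 19182 in DKO 1 to 3. WT 3 and KO 3, the mice whose names have another prefix, were the lowest of their groups. With all mice the log2 fold change of Pkd2 knockout against wild type was -0.28 ± 0.22 (interval of -0.77 to 0.21, limma adjusted p = 0.530), and without KO 3 it was -0.03. KO 3 also had the highest summed red blood cell and adipose markers, whose part in its low Tfcp2l1 was not tested. With WT 3 and KO 3 both left out the value was -0.17 (adjusted p = 0.505), and the same fit gave -0.39 for Pou3f3 (adjusted p = 0.159).

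**Figure D2:**
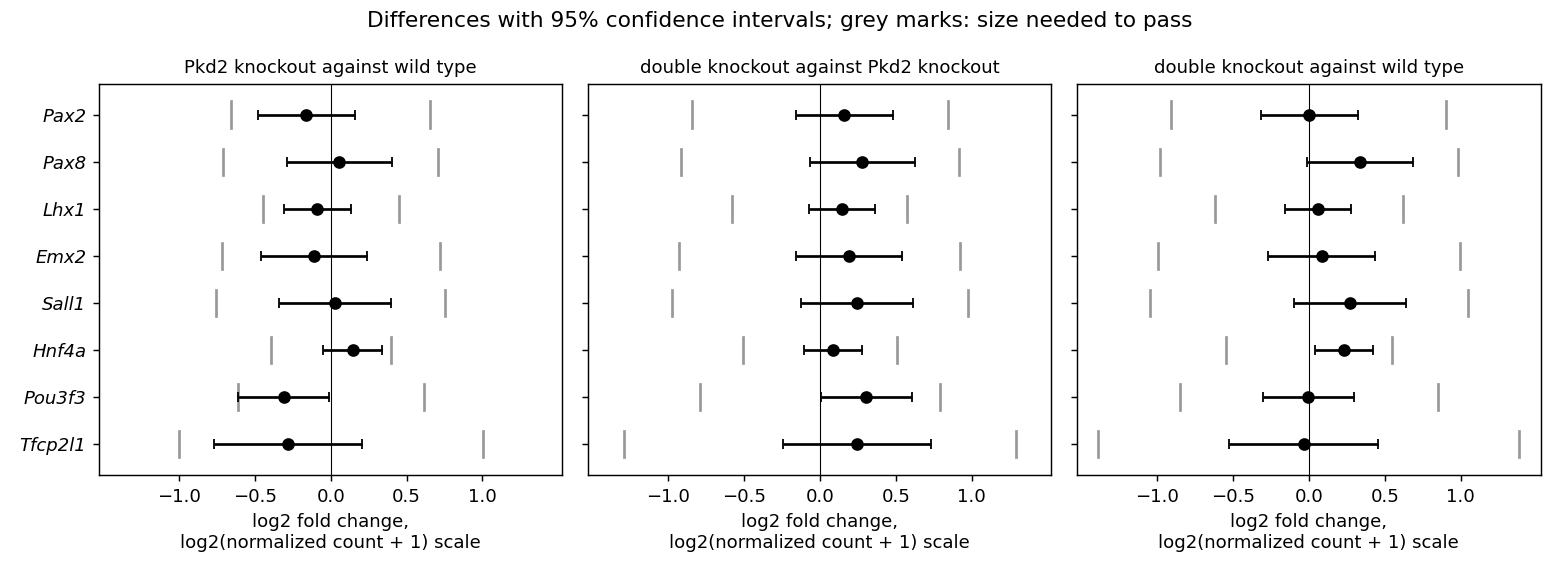
Log2 fold changes of the 8 factors in the 3 comparisons, with 95% confidence intervals from limma as bars and, as grey marks, the size at which a gene of that standard error would have been called. Every point lies inside its grey marks, and the interval excludes 0 for Pou3f3 in the first and second panels and for Hnf4a in the third.

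The precision differed between factors. At its own standard error a factor would have passed between Pkd2 knockout and wild type with a log2 difference of at least 0.39 for Hnf4a, 0.45 for Lhx1, 0.61 for Pou3f3, 0.65 for Pax2 and 1.002 for Tfcp2l1. Between double knockout and wild type, where fewer genes were called, the sizes ran from 0.55 for Hnf4a to 1.39 for Tfcp2l1. With 3 mice a group, an estimate smaller than these sizes could not be called in that fit. The sizes are not limits on the true differences. In the comparison of double knockout with Pkd2 knockout all 8 factors had higher means, with a median log2 fold change of 0.22. Over all tested genes the median was 0.00 (0.00463) and 51.3% had higher means. Other kidney genes moved in a similar way. Of 56 other kidney transcription factors, a list read below, 42 had higher means and 14 lower, with a median of 0.20. Means were higher for all 8 genes tied to Tfcp2l1 and all 7 tied to Pax2 and Pax8, and for 3 of 6 paralogs. Marker lists had medians on both sides of 0 in the same comparison. All 6 intercalated cell and all 5 podocyte markers had higher means, with medians of 0.32 and 0.19. All 8 thick ascending limb markers had higher means, with a median of 0.33. Limma called 0 of them, with 5 higher at an unadjusted p under 0.05, where 10.7% of all genes differed. The median was -0.997 for 5 fibroblast markers, of which 1 was called lower, Col1a1, named after its value was seen. The 6 markers of cells in mitosis had a median of -1.78, with 5 called lower, where 0.267% of all genes were. Macrophage and injured tubule markers, 6 of each, had medians of -0.72 and -1.34, with 0 called by limma. At an unadjusted p under 0.05, 3 and 4 of them were lower, where 10.7% of all genes differed. Their part in the higher means of the factors was not tested. Medians of the 8 factors in the other comparisons were -0.10 between Pkd2 knockout and wild type and 0.07 between double knockout and wild type.

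Compared per length, the factors spanned a wide range of levels. Dividing normalized counts by the summed exon length of GENCODE M21 models (the authors may have used others) gave a wild type mean of 8511 ± 322 normalized counts per kb (SD, n = 3) for Hnf4a and 2315 ± 408 for Tfcp2l1. Pax8 followed at 787 ± 16.3 and Emx2 at 658 ± 50.6. Sall1 at 528 ± 76.6 and Pou3f3 at 497 ± 22.5 overlapped in their spread, Pax2 stood at 411 ± 54.2, and Lhx1 was lowest at 297 ± 24.7. In double knockout kidneys Emx2 and Sall1, at 711 ± 183 and 644 ± 138, also overlapped. Hnf4a, Tfcp2l1 and Pax8 kept the first 3 places in each group.

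**Figure D3:**
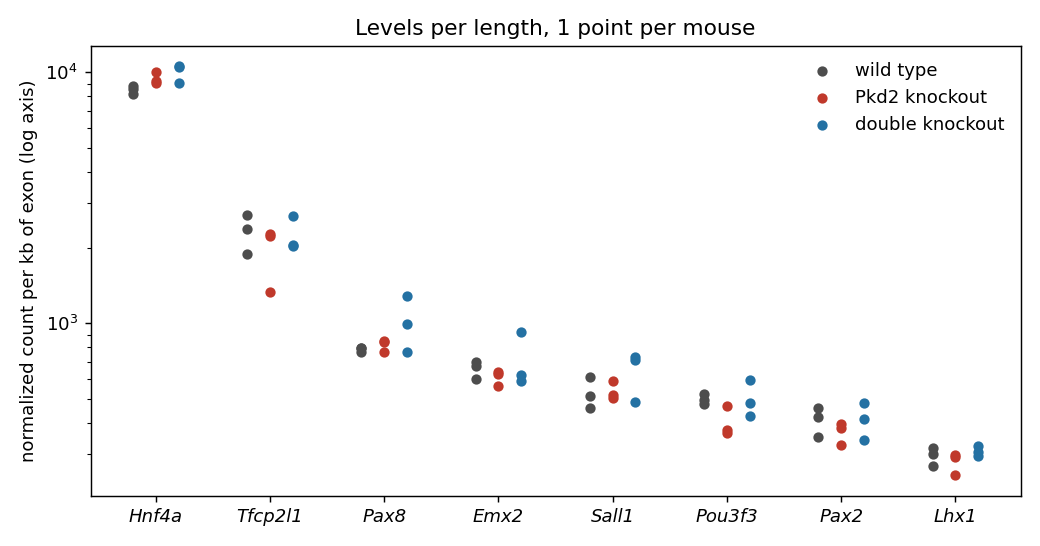
Normalized counts per kb of exon on a log axis, 1 point per mouse, with the factors in order of their mean over 9 mice. Hnf4a lies highest in every mouse, the points of Emx2, Sall1, Pou3f3 and Pax2 interleave, and Lhx1 is at the low end.

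Antisense or neighbouring transcripts of the factors were listed as 5 rows, 4 of them under older names. The counting is not stated to use strand, so reads from a factor and an overlapping antisense gene cannot be told apart. This also holds for Pax8, whose exons overlap those of Gm13415 on the opposite strand, a row outside the list with means of 48.9, 48.6 and 38.7 normalized counts in wild type, Pkd2 knockout and double knockout kidneys. Another such row, 1700039E22Rik, lies opposite Pax2 without exon overlap, at 31.2, 26.7 and 30.2. Emx2os, antisense to Emx2 with overlapping exons, was 282 ± 11.4, 237 ± 41.5 and 235 ± 21.8 normalized counts in wild type, Pkd2 knockout and double knockout kidneys (SD, n = 3). Hnf4aos, listed as 0610008F07Rik, runs antisense to Hnf4a without exon overlap in GENCODE M21, and was 412 ± 69.0, 318 ± 79.8 and 325 ± 32.5, with a lower mean in both mutant groups while Hnf4a itself had higher means. Pantr1, a non-coding neighbour of Pou3f3 listed as 2610017I09Rik, was 433 ± 148, 252 ± 43.0 and 294 ± 52.5. Lhx1os, listed as 1500016L03Rik, was 314 ± 27.2, 275 ± 45.6 and 199 ± 28.5, with an unadjusted p of 0.00202 between double knockout and wild type (limma adjusted p = 0.157). None of the 5 was called by limma, edgeR or DESeq2 in any comparison. At an unadjusted p under 0.05, 1 of the 5 was lower in each comparison, Pantr1 in the first and Lhx1os in the others. Of all tested genes 18, 10.7 and 11.7% differed at that threshold.

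Paralogs of the factors were read in the same way. Of 13 listed, 11 were in the table and 6 passed the filter: Hnf4g, Emx1, Sall2, Sall3, Tfcp2 and Ubp1. Limma and edgeR called 0 of the 6 in every comparison, with 2, 1 and 2 of them lower at an unadjusted p under 0.05 (where 18, 10.7 and 11.7% of all genes differed) in Pkd2 knockout against wild type, double knockout against Pkd2 knockout and double knockout against wild type. DESeq2 called 1 lower between double knockout and Pkd2 knockout. Emx1, the closest relative of Emx2, stood at 1582 ± 56.4 in wild type against 1116 ± 204 in Pkd2 knockout kidneys (log2 fold change of -0.52 ± 0.14, limma adjusted p = 0.0976), and passed without KO 3 (adjusted p = 0.0413). With 1 mouse left out, its highest limma adjusted p was 0.289. Hnf4g was 673 ± 17.7 and 809 ± 256 normalized counts in the same groups. Emx1, Hnf4g and Sall3 are also on the wider list of kidney factors.

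Genes reported to need these factors or to lie downstream of them were read segment by segment, the loop of Henle genes from reports on development. Whether they need the factors in mice of this age was not tested. The lists were chosen with earlier results of these data known, so their shares beside those of all genes are a description. The pool of RNA is a bulk kidney, so fewer cells of a type and less RNA per cell cannot be told apart. In Pkd2 knockout kidneys the loop of Henle genes tied to Pou3f3 were lower. The test was passed by 3 of 5, all downward, and missed by 2, and the median log2 fold change was -0.61 against 0.00 (0.00426) over all genes, of which 1.25% were called lower. Umod, which encodes uromodulin, was 173515, 163265 and 171175 normalized counts in WT 1 to 3 and 101002, 103552 and 69605 in KO 1 to 3, without overlap. It fell by 0.91 ± 0.17 on the log2 scale (limma adjusted p = 0.0319). Slc12a1, the cotransporter NKCC2, fell by 0.87 ± 0.12 and Ptger3, a prostaglandin receptor, fell by 0.61 ± 0.10. Kcnj1 (the potassium channel ROMK) and Bsnd (the chloride channel subunit barttin) had log2 fold changes of -0.51 and -0.53 with limma adjusted p of 0.0672 and 0.0559. Pou3f3 itself stood at 81.2% of its wild type mean, against 54.0% for Umod and 54.7% for Slc12a1. The Umod call was lost when any 1 of the 3 wild type mice, KO 1 or KO 2 was dropped (adjusted p up to 0.110), that of Slc12a1 without WT 2 (0.0542) and that of Ptger3 without WT 2 or KO 1 (highest 0.0788). No loop gene was called without WT 2, 1 was without KO 1, and 1 was with WT 3 and KO 3 both left out. DESeq2 on 7 libraries called the same number, 3, and edgeR on those libraries called 0. Umod also missed the threshold with a replicate block (adjusted p = 0.0503), where Bsnd passed (0.0423), and without the intensity trend of limma (0.0540). Markers of the neighbouring distal convoluted and connecting tubule were also lower. The 6 markers summed to between 83335 and 99504 normalized counts in wild type and between 55343 and 66748 in Pkd2 knockout kidneys, without overlap. Their median log2 fold change was -0.64, and 2 of the 6 were called lower, Calb1 and Slc8a1, which are named here after their values were seen.

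The ratio of Pou3f3 to summed markers of its own segment was higher in both mutant groups, where the marker sum was lower. Per 1000 counts of the 8 summed thick ascending limb markers, Pou3f3 gave 9.24, 9.99 and 10.6 counts in WT 1 to 3. The ratio was 13.1, 13.2 and 20.1 in KO 1 to 3 and 18.6, 11.97 and 13.8 in DKO 1 to 3. All mutant mice lay above the wild type mice. The sum of the markers itself went from between 362591 and 381245 in wild type to between 172933 and 210225 in Pkd2 knockout and between 227553 and 297199 in double knockout kidneys. Pou3f3 itself had means of 3680, 2987 and 3704 normalized counts in wild type, Pkd2 knockout and double knockout kidneys, so the higher ratio follows the lower sum. Umod, Egf and Slc12a1 make up much of that sum, and Pou3f3 is also expressed outside the thick ascending limb, so the ratio is a description.

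**Figure D4:**
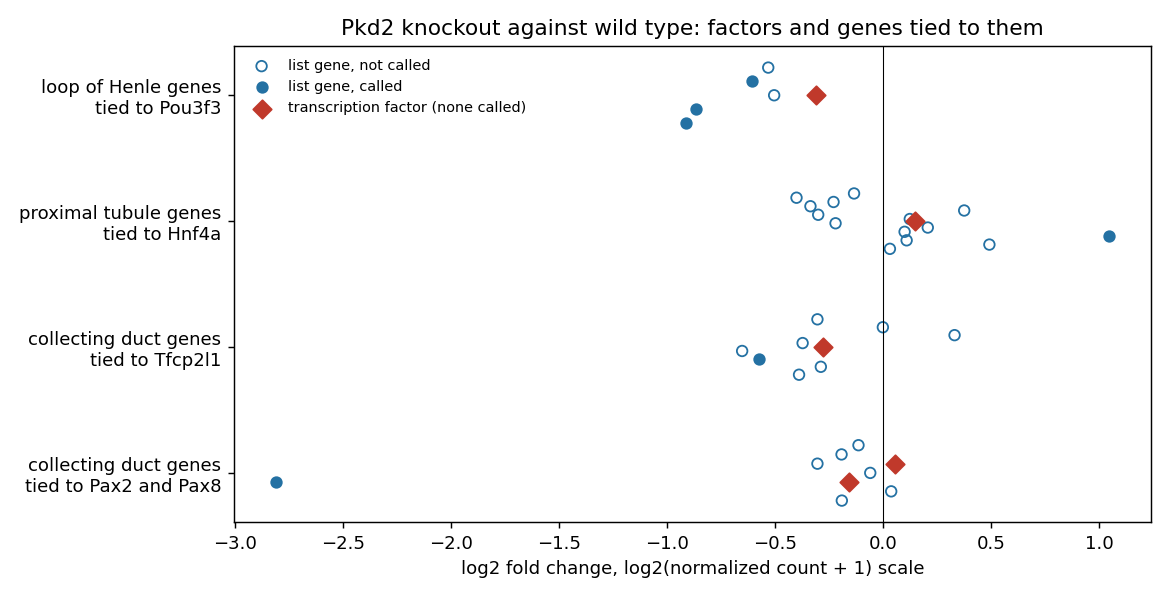
Log2 fold changes of Pkd2 knockout against wild type for the genes tied to each factor (circles, filled where called) and for the factor itself (diamonds). All 5 loop of Henle genes lie left of 0 and further left than Pou3f3, whereas the proximal tubule genes lie on both sides of Hnf4a.

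Proximal tubule genes tied to Hnf4a did not move as a group. Of 14 measured in Pkd2 knockout kidneys 1 rose and 13 missed the threshold, none fell, and the median log2 fold change was 0.06, where 1.14% of all genes were called higher. At an unadjusted p under 0.05 (limma), 3 were higher and 2 lower, where 18% of all genes differed. The groups did not overlap for 3 higher and 3 lower genes, in all 42.9%, where 25.2% of all genes were so separated. The gene that rose was Slc5a12, a lactate transporter, from 11378 ± 1346 to 23436 ± 2373 normalized counts (log2 fold change of 1.04 ± 0.18, limma adjusted p = 0.0252). Dropping WT 1, WT 2, KO 1 or KO 2 ended that call (adjusted p up to 0.0999), and edgeR called 0 of the 14. Slc34a1, the main phosphate transporter, was 231411 ± 14271 and 236599 ± 19889, and Slc34a3, its relative, was 2227 ± 184 and 3124 ± 94.9. The limma adjusted p of Slc34a3 was 0.0558 with all mice, 0.0232 without DKO 2 and at most 0.171 with 1 mouse left out. Double knockout mice bear on comparisons of Pkd2 knockout with wild type only through the spread that all groups share in the fit. Lower means were found for Cubn, at 33660 ± 1269 and 27300 ± 242 (adjusted p = 0.109, limma), and for Ass1, at 58610 ± 1265 and 46550 ± 4890. Of the 10 proximal tubule markers 1 was called higher, Slc5a12, and 1 lower, Miox. Miox, named after its value was seen, went from 44632 ± 423 to 28271 ± 1448. Per 1000 counts of 10 proximal tubule markers, Hnf4a itself was 64.2, 63.7 and 62.9 in WT 1 to 3, 75.7, 69.3 and 67.1 in KO 1 to 3, and 66.2, 71.2 and 75.5 in DKO 1 to 3. The wild type mice lay below all mutant mice, as for the Hnf4a counts themselves. Because the marker sum lay between 618189 and 714917 in all mice, this ratio is not a separate observation.

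Among collecting duct genes tied to Tfcp2l1, 1 of 8 fell in Pkd2 knockout kidneys and 7 missed the threshold, none rose, and the median log2 fold change was -0.34, where 1.25% of all genes were called lower. At an unadjusted p under 0.05, 4 of the 8 were lower, where 18% of all genes differed, and 6 of the 8 were lower without overlap of the groups, where 12.8% of all genes were. The called gene was Atp6v1g3, a proton pump subunit of intercalated cells, which fell by 0.58 ± 0.09 on the log2 scale (limma adjusted p = 0.0171). Dropping WT 1, WT 2 or KO 1 ended the call (adjusted p up to 0.0788), and edgeR called 0 of the 8. With DKO 3 left out 3 of these genes were called, and with DKO 1 left out 2 were. Slc4a1, the basolateral chloride-bicarbonate exchanger, stood at 1737 ± 45.7 in wild type against 1107 ± 104 in Pkd2 knockout. Its limma adjusted p was 0.0949 with all mice, 0.0234 without DKO 1 and at most 0.259 with 1 mouse left out. Foxi1, the master factor of intercalated cells, was 638 ± 150 and 794 ± 131. Summed intercalated cell markers lay between 11849 and 12416 in wild type and between 9084 and 9375 in Pkd2 knockout kidneys. Per 1000 counts of principal and intercalated cell markers Tfcp2l1 ranged from 399.9 to 633 in wild type, from 407 to 607 in Pkd2 knockout and from 439 to 637 in double knockout kidneys, so the 3 groups overlapped.

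Of 8 collecting duct genes tied to Pax2 and Pax8, 7 were tested. Between Pkd2 knockout and wild type 1 fell and 6 missed the threshold, and the median log2 fold change was -0.19, where 1.25% of all genes were called lower. The gene that fell was Wnt11, a Wnt ligand of ureteric bud tips, which stood at 68.3, 80.0 and 77.3 normalized counts in WT 1 to 3 and at 16.9, 9.34 and 5.85 in KO 1 to 3. Its log2 fold change was -2.81 ± 0.38 (limma adjusted p = 0.00884), and DKO 1 to 3, at 19.3, 13.6 and 10.5, overlapped the Pkd2 knockout mice. The Wnt11 call was lost without WT 2 (adjusted p = 0.0535) and with edgeR on 7 libraries (0.0826). Aqp2, the vasopressin-regulated water channel, was 11752 ± 468 and 9584 ± 1443 normalized counts in wild type and Pkd2 knockout, and Gata3, a duct transcription factor, was 828 ± 74.2 and 731 ± 134. In the comparisons that involve double knockout kidneys limma called 0 genes of the 4 lists of tied genes. Between double knockout and Pkd2 knockout, 3 of 5 loop of Henle genes, 3 of 14 proximal tubule genes, 3 of 8 genes tied to Tfcp2l1 and 1 of 7 tied to Pax2 and Pax8 were higher and 0 lower with an unadjusted p under 0.05, where 10.7% of all genes differed. DESeq2 called 1 gene tied to Tfcp2l1 in that comparison and edgeR called 0. Between double knockout and wild type the lists had, in the same order, 0, 5, 2 and 0 genes higher and 4, 1, 0 and 1 lower at an unadjusted p under 0.05, where 11.7% of all genes differed. DESeq2 called 1 proximal tubule gene higher and 1 gene tied to Pax2 and Pax8 lower there, and edgeR called 0.

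A wider list of 60 other kidney transcription factors, also chosen with earlier results known, was read against the 8. Of these 59 were in the table and 56 were tested, and in Pkd2 knockout kidneys 3 fell and 53 missed the threshold, none rose, and the median log2 fold change was -0.25. The 3 are 5.36% of those tested, where 1.25% of all genes were called lower. Hoxd8, a posterior Hox factor, dropped to 3365 ± 237 normalized counts from 5255 ± 432, with a log2 fold change of -0.64 ± 0.10 (limma adjusted p = 0.0142). Irx1, an Iroquois factor of intermediate nephron segments, fell by 0.63 ± 0.10, from 2390 ± 207 to 1544 ± 31.8. Mecom, a zinc finger factor of distal tubule identity, fell by 0.62 ± 0.12, from 2564 ± 284 to 1659.9 ± 139. The groups of 21 of the 56 were lower without overlap and of 6 higher, in all 48.2%, where 25.2% of all tested genes were separated. The Hoxd8 call was lost when WT 2 or KO 1 was dropped (adjusted p up to 0.0661), that of Irx1 without WT 1, WT 2, KO 1 or KO 2 (0.0861) and that of Mecom without any 1 WT or KO mouse except WT 3 (0.121). Mecom also missed the threshold without the intensity trend (adjusted p = 0.0604). The list had 0 called members without WT 2 or KO 1, 1 without WT 1 or KO 2 and 6 without DKO 3. edgeR called 0 and DESeq2 called 4, all lower.

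**Figure D5:**
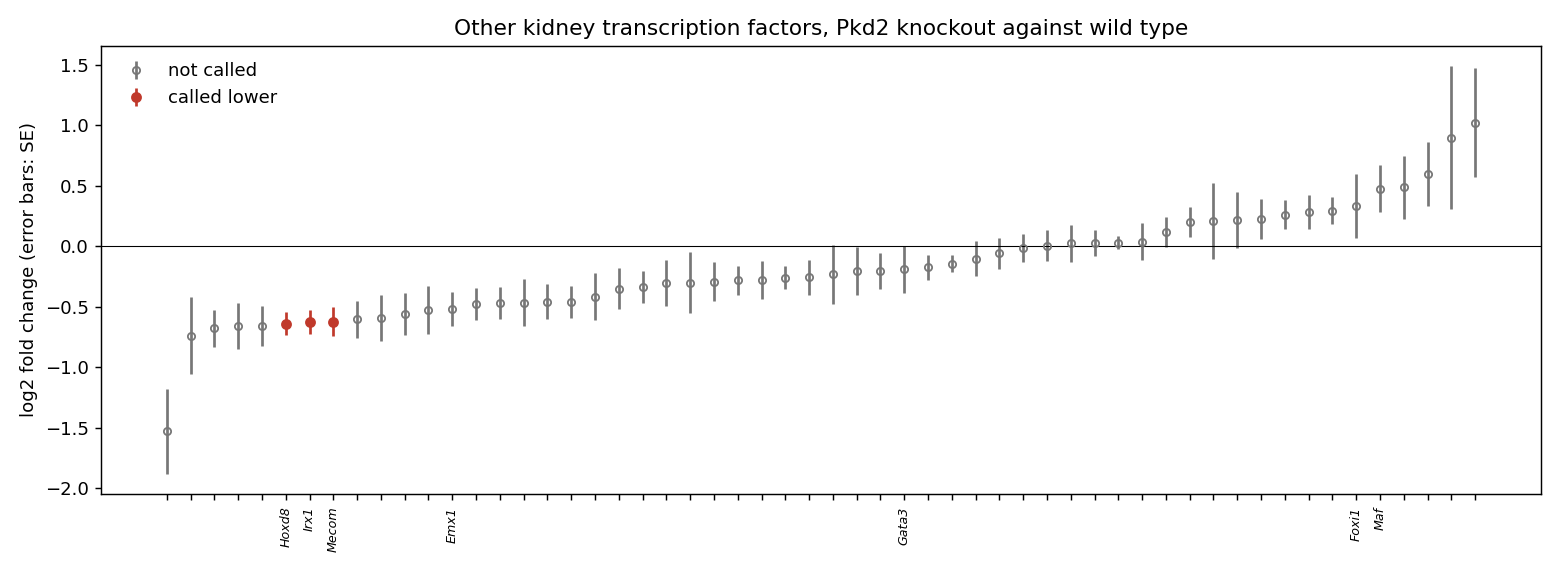
Log2 fold changes of 56 other kidney transcription factors between Pkd2 knockout and wild type, with standard errors, sorted from the lowest to the highest, with names only for genes given in the text. More points lie below 0 (37) than above (19), and the 3 called genes, Hoxd8, Irx1 and Mecom, lie among the lower ones.

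Maf, the most abundant uncalled factor of that list, had 12466 ± 2611 normalized counts in wild type mice, 17460 ± 4457 in Pkd2 knockout mice and 19004 ± 2126 in double knockout mice. Between double knockout and Pkd2 knockout limma and edgeR called 0 of the 56, as did DESeq2, with 11 higher and 1 lower before adjustment (p under 0.05), where 10.7% of all genes differed. Limma and edgeR also called 0 between double knockout and wild type, with 3 higher and 10 lower at an unadjusted p under 0.05, where 11.7% of all genes differed, and DESeq2 called 1.

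Over the 9 mice the log2 values of the factors were correlated pair by pair, as a description. Pax8 with Sall1 had the highest Pearson r of the 28 pairs, 0.82, Pax2 with Pou3f3 had 0.65, and Pax2 with Hnf4a had the lowest, -0.50. The genes whose log2 values followed each factor most closely were taken from 12205 with a mean of at least 50. For Pax8 they were Fbxl19 and Klf15 (Pearson r of 0.97 for both), and for Pou3f3 they were Sfxn4 (0.95) and Gpr112 (0.94). Tfcp2l1 was followed by Limd1 (0.96), and the genes nearest to Hnf4a were Tbc1d8b (0.95) and Gtf2h1 (0.94). Pax2 was followed by Tcte2 (0.95) and Epha4 (0.94), Sall1 by Ifitm2 (0.96) and Tmem86b (0.95), Emx2 by Rspry1 (0.95) and Rhov (0.94), and Lhx1 by Cnot8 (0.92) and Anks1 (0.88). Each value is a description over 9 libraries and the highest of many, and the libraries share genotype groups.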

How the data were processed

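The authors deposited normalized counts per gene for 9 kidney libraries, a signal obtained by scaling read counts with 1 factor per library. Per the submitters' processing notes, the tools were STAR 2.5.0 (alignment), HTSeq 0.6.1 (counting) and DESeq2 (scaling), whose version, like the build, annotation and strand setting, is not given in the sources used here. Groups and replicates came from the sample titles. All 3 groups entered a single fit with limma 3.58.1 under R 4.3.3, on log2 values after adding 1, with the intensity trend on and without a block. The fit used the 15740 genes whose mean reached 10. A two-sided p below 0.05 after Benjamini-Hochberg adjustment made a call. The p-values take mice as independent.

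In 7 libraries 100% of values were whole multiples of 1 read within 0.05, with 37056843 to 47314829 reads each. In WT 1 and KO 1 1 read was worth 1.004 and 0.993 normalized counts, too near 1 to test for whole steps, so edgeR 4.0.16, which called 11, 10 and 10 genes in the 3 comparisons, and DESeq2 1.42.0 (296, 152 and 111) used the other 7. Reads carry no molecular identifiers and may repeat a molecule, so errors given are between mice.

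Other alternatives were pseudocounts, filters, TMM, median-ratio and quantile scaling, no trend, array weights, fewer groups, a replicate block and leaving out libraries. The procedure was tested on simulated data, with changes placed in Pkd2 knockout against wild type. It called 37.3% of 67 simulated log2 changes of 0.5, 71.6% of 67 of size 1 and 95.5% of 66 of size 2. False calls were 6. Members and lists were chosen with earlier results of these data known. The naming rule took the 8 factors, Pkd2, Ift88, called genes and the most abundant uncalled gene of the wider factor list, genes of the lists tied to a factor, paralogs and neighbours, and 2 nearest genes per factor, of which 1 is not reported here. Of 25 row names turned into dates, none is discussed. Six2, Sall4 and Pou3f4 were not analysed here. Promoters came from RefSeq (GRCm38.p6) and exon lengths from GENCODE M21.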

Additional observations from a re-analysis of the deposited data

How the results depend on the processing

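Of 576 values of the 8 factors under alternative settings, 547 kept direction and side of the threshold, 28 changed sign and 1 became a call (Pou3f3 in Pkd2 knockout against wild type with array quality weights). The cause of each change below was not tested, except that settings with fewer libraries have fewer degrees of freedom. With 3 mice a group, an estimate under the size given for a factor could not be called in the main fit. A missed call does not show that a factor was unchanged.

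Leaving out 1 library at a time, called genes ranged from 70 to 436 (Pkd2 knockout against wild type, 377 with all), from 8 to 154 (double knockout against Pkd2 knockout, 62) and from 18 to 58 (double knockout against wild type, 36). In Pkd2 knockout against wild type, called members ranged from 0 to 6 for the other transcription factors, 0 to 1 for paralogs, 0 to 3 for loop of Henle genes, 0 to 2 for proximal tubule genes, 0 to 3 for genes tied to Tfcp2l1 and 0 to 1 for those tied to Pax2 and Pax8. In double knockout against Pkd2 knockout they ranged from 0 to 1 for the other factors and 0 to 2 for genes tied to Tfcp2l1, and in double knockout against wild type from 0 to 1 for those tied to Pax2 and Pax8. Log2 fold changes that changed sign ranged, against wild type in Pkd2 knockout, from -0.067 to 0.14 (Sall1) and -0.038 to 0.077 (Slc34a1). In double knockout against wild type they ranged from -0.0059 to 0.11 (Lhx1), -0.18 to 0.080 (Tfcp2l1), -0.11 to 0.13 (Pax2), -0.14 to 0.11 (Pou3f3) and -0.12 to 0.21 (Emx2), and against Pkd2 knockout from -0.0033 to 0.38 (Tfcp2l1) and -0.0088 to 0.32 (Emx2).

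Array quality weights called 3222, 614 and 295 genes in the 3 comparisons. In Pkd2 knockout against wild type they called 1 of the 8 factors, 24 other factors, 2 paralogs, 2 neighbouring transcripts, 5 loop, 6 proximal tubule and 4 Tfcp2l1-tied genes. In double knockout against Pkd2 knockout they called 4 other factors, 1 paralog, 1 loop and 2 Tfcp2l1-tied genes, and against wild type 1 other factor, 4 proximal tubule genes and 1 gene tied to Pax2 and Pax8. They turned Slc34a1 to -0.039 in the first comparison, and Pax2 to -0.030 and Pou3f3 to 0.062 in the third. A replicate block called 217, 15 and 20 genes. Deviations of same-numbered mice from their group means had correlations of -0.142 to 0.215, of which 2 of 9 were over the preset mark of 0.1. Whether the numbers pair the mice cannot be told from this check, because the 3 deviations within a group sum to 0. Quantile normalization called 31 genes in the second comparison and 2 proximal tubule genes in the first, and turned Pax2 to -0.012 in the third. TMM scaling turned Pou3f3 to 0.000639 there. A pseudocount of 10 called 1 Tfcp2l1-tied gene in the second and 1 gene tied to Pax2 and Pax8 in the third, and a filter at a mean of 50 left 0 of the latter in the first.

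With only the compared groups fitted, 8 other factors, 2 proximal tubule and 4 Tfcp2l1-tied genes were called in the first comparison, 26 genes in the second, and 1 gene tied to Pax2 and Pax8 in the third. With WT 3 and KO 3 left out, 308 and 111 genes were called in the second and the third comparison, 5 other factors and 1 loop gene in the first, and 1 other factor in the second. That setting turned Slc34a1 to -0.044 in the first, Tfcp2l1 to -0.0033 in the second, and Pax2 to -0.11 and Pou3f3 to 0.030 in the third. On 7 libraries limma called 13, 11 and 11 genes and edgeR 11, 10 and 10, both with 0 other factors, loop, proximal tubule, Tfcp2l1-tied or Pax2- and Pax8-tied genes in the first. DESeq2 called 152 and 111 genes in the second and the third, with 1 paralog and 1 Tfcp2l1-tied gene in the second, and 1 other factor, 1 proximal tubule gene and 1 gene tied to Pax2 and Pax8 in the third. In the first comparison limma, edgeR and DESeq2 on 7 libraries turned Lhx1 to 0.049, 0.055 and 0.050 and Sall1 to -0.021, -0.016 and -0.021.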
